A study of Mus musculus with 7 samples.

Results

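Ifit1, Ifit2, Ifit3, Mx1, Mx2, Rsad2 and Cmpk2 encode antiviral effector proteins that cells make in response to interferon. They were taken by gene symbol from a table of read counts of mouse tumours. All 7 were among its 24421 symbols, and all 7 were among the 13545 genes with enough counts to be tested. Every animal was given anti-PD-1, an antibody to a receptor that restrains T cells. The control group (n = 3) also received anti-KLH, an antibody against keyhole limpet haemocyanin that has no target in the mouse, and the treated group (n = 4) anti-Lair1, which blocks LAIR1, a collagen receptor that inhibits leukocytes. All 7 tumours were labelled week 4.

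The text of the series names tumours grown from 344SQ lung cancer cells (from K-rasLA1/+p53R172H∆g/+ mice) under the skin of 129/Sv mice aged 6 to 8 weeks, given 10 mg/kg of anti-LAIR or 8 mg/kg of anti-PD-1 or both. It also names lung tumours of KrasLSL-G12D/p53fl/fl mice, started with a Cre adenovirus at 3 to 4 months of age and treated 2 months later. Which of the models the 7 libraries represent is not stated in the labels. All treated animals have names with the prefix WTSV, and the control names start with LOHM (2 animals) or KWM (1 animal), so any effect of what the prefixes denote cannot be told apart from that of the antibody. The animals were named separately, but nothing says that they were handled independently, so p-values measure the spread between these samples.

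Interferons alpha and beta bind a shared receptor with the kinases JAK1 and TYK2, and its signal ends at the interferon-stimulated response element (ISRE) in the promoters of target genes. Interferon gamma has its own receptor, and its signal ends at the gamma-activated site (GAS). IFIT proteins bind viral RNA and interfere with its translation. Mx proteins are dynamin-like GTPases that trap viral components, and viperin, the product of Rsad2, makes a modified nucleotide that stops viral polymerases, with CMPK2, a nucleotide kinase, encoded next to it. Many cell types of a tumour, leukocytes and carcinoma cells among them, can express these genes, and in such mixed tissue more cells of a type and more RNA per cell cannot be told apart.

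The promoters are shown because the ISRE is the element through which genes of this kind are known to be induced together. RefSeq promoters (GRCm38.p6) were at hand for 5 of the 7 genes, with 2 starts for Ifit2. The core of the element, 2 runs of GAAA separated by 2 bases of any kind, was searched on both strands in the 250 bases before each start. Matches were found for 3 of the 5 genes, Ifit1, Ifit3 and Rsad2, while 3.46% of all 27025 genes in the table, and 2.98% of its 32851 promoters, held a match. The stretches below run 5′ to 3′ on the strand of the gene and end at the base before the start that the promoter table gives, which for Ifit3 lies inside the RefSeq gene. Capitals mark the ISRE core, which lies on the opposite strand and therefore reads as 2 runs of TTTC.
Ifit1, chr19:34640770-34640888, plus strand: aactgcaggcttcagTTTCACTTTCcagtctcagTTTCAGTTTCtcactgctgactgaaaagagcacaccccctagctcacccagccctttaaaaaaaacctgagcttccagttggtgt
Ifit3, chr19:34583358-34583528, plus strand: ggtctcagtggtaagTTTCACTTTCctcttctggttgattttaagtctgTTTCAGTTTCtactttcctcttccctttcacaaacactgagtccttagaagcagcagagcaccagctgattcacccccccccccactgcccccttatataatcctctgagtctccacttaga
Rsad2, chr12:26456453-26456587, minus strand: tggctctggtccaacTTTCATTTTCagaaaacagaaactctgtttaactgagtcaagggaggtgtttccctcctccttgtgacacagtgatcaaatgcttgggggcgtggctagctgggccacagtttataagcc

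Ifit1 and Ifit3 held 2 matches each, and the same 2 versions of the element occurred in both genes in the same order. In Ifit1 the matches began 104 and 85 bases before the start, and in Ifit3 156 and 122 bases before it. Rsad2 held 1 match, which began 120 bases before its start and ended 111 bases before it. The letters were not found in these windows for Ifit2 or Cmpk2. For these genes too, the starts used lie inside the RefSeq gene. Those of Ifit2 are at 34550694 and 34551088, with the gene from 34550550, and that of Cmpk2 is at 26469215, with the gene from 26469117. The core of the GAS, TTC and GAA separated by 3 bases, occurred once among the 6 promoters, 241 bases before the first start of Ifit2, against 7.02% of all promoters, and no match of either motif overlapped another.

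**Figure D1:**
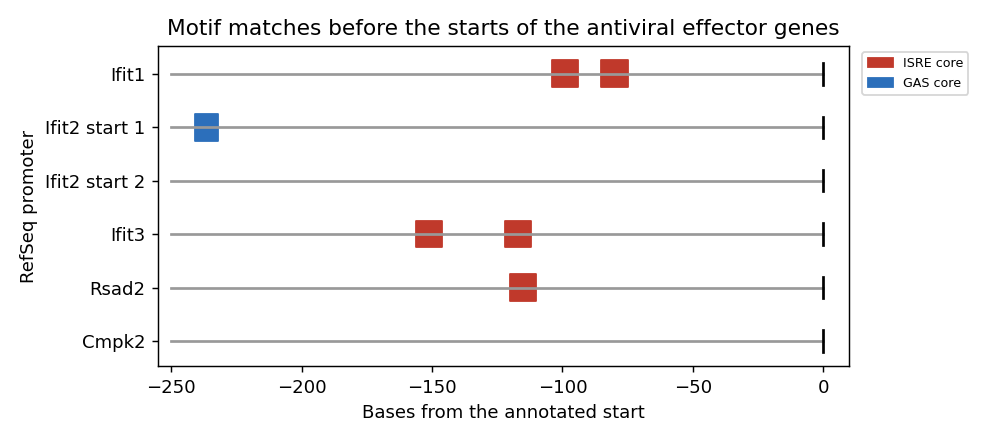
Matches to the ISRE core (red) and GAS core (blue) in the 250 bases before the RefSeq starts of the 5 antiviral effector genes with a promoter in the table. The horizontal axis gives bases from the start, marked by a black tick. Ifit1 and Ifit3 have 2 ISRE cores, Rsad2 has 1, and Ifit2 and Cmpk2 have none in this window.

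The genes lie in 3 places of the genome (RefSeq gene table, GRCm38). Ifit2 (chromosome 19, 34550550 to 34576534), Ifit3 (34583119 to 34588982) and Ifit1 (34640889 to 34650009) follow one another on the plus strand. Mx1 (chromosome 16, 97447035 to 97462906, minus strand) and Mx2 (97536081 to 97560901, plus strand) lie 73.2 kb apart. Rsad2 (chromosome 12, 26442743 to 26456452, minus strand) and Cmpk2 (26469117 to 26479837, plus strand) point away from each other across 12.7 kb. The table lists Mx1 and Mx2 as transcribed pseudogenes, as most inbred laboratory strains carry defective copies of both, so their transcripts report a response and need not yield working protein.

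Total counts ran from 9879762 to 26255727 per library, at which 3 counts are worth 0.305 to 0.119 CPM (counts scaled to equal library totals). All 7 genes lay above that level in each library. Carcinoma markers fitted the tumour label: keratins and other epithelial genes (7 listed) summed to between 4747 and 5885 CPM in controls and between 4850 and 5852 CPM with anti-LAIR1.

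All 7 effector genes had a higher mean with anti-LAIR1, by ratios from 1.44 for Ifit2 to 3.90 for Mx1, and for 6 of the 7 the treated and control libraries did not overlap. None passed a test across all genes: edgeR's quasi-likelihood test called 0 of the 7 at an adjusted p under 0.05, as it called 0% of the genes tested. At an unadjusted p under 0.05, 6 of the 7 were higher, against 3.51% of all genes tested (476 genes). The share of all genes with separated groups and higher treated libraries was 3.06%. The median log2 fold change was 1.26 for the 7 genes and 0.00 for all tested genes. A log2 fold change above 1 was found for 4 of the 7, against 2.1% of all genes, and one above 0 for all 7, against 49.1%.

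**Figure D2:**
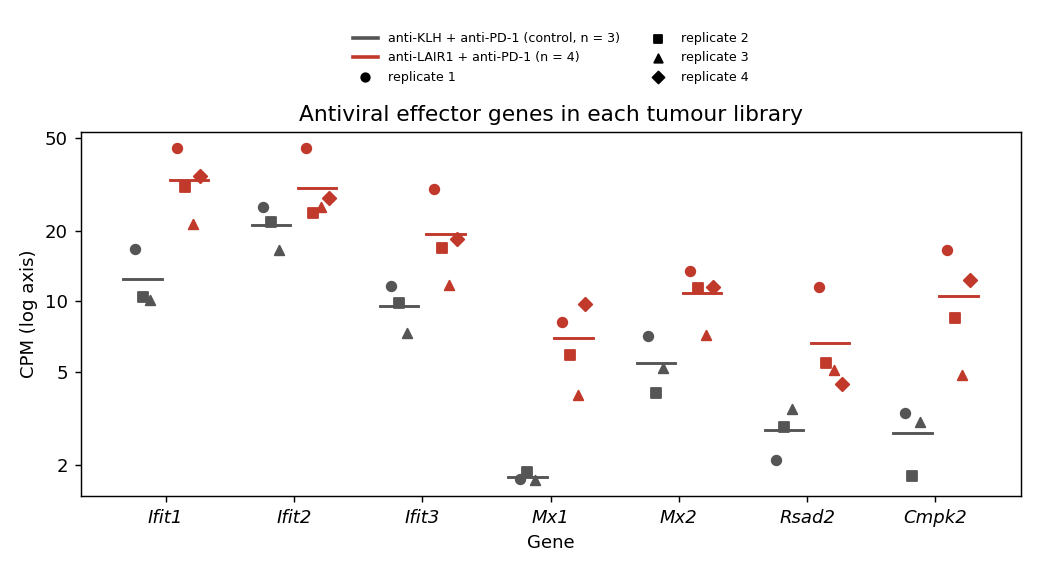
CPM on a log axis for each of the 7 genes in each library. Grey points are the 3 control libraries, red points the 4 anti-LAIR1 libraries, marker shapes give the replicate, and horizontal lines are group means. Groups overlap for Ifit2 only, where anti-LAIR1 replicate 2 (23.7 CPM) lies below control replicate 1 (25.3 CPM).

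Ifit1, which binds viral RNA lacking the host's cap modification, stood at 16.7, 10.4 and 10.1 CPM in control replicates 1, 2 and 3, and at 45.0, 30.8, 21.3 and 34.2 CPM in anti-LAIR1 replicates 1 to 4. Every treated library was above every control. The means were 12.4 ± 3.76 CPM (SD, n = 3) and 32.8 ± 9.76 CPM (SD, n = 4). The log2 fold change was 1.39 (SE 0.28; edgeR unadjusted p = 0.000850, adjusted p = 0.624). An exact two-sided permutation test of log2 CPM gave p = 0.0286, the lowest value that 3 and 4 samples can yield.

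Ifit3, which lies between Ifit2 and Ifit1, stood at 11.6, 9.80 and 7.33 CPM in controls and at 30.3, 16.9, 11.7 and 18.4 CPM with anti-LAIR1. The groups were separated by a narrow gap, since anti-LAIR1 replicate 3 (11.74 CPM) was just above control replicate 1 (11.64 CPM). Its log2 fold change was 1.00 (SE 0.31; edgeR unadjusted p = 0.0110, adjusted p = 0.868; exact permutation p = 0.0571).

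Ifit2, which binds AU-rich RNA, had the smallest difference of the 7. Its controls were at 25.3, 21.8 and 16.5 CPM and its treated libraries at 45.0, 23.7, 25.3 and 27.5 CPM, so that only anti-LAIR1 replicate 1 stood clear of the rest. The log2 fold change was 0.51, with a 95% interval from -0.04 to 1.07 (SE 0.24; edgeR unadjusted p = 0.0657, adjusted p = 0.978; exact permutation p = 0.143). Without anti-LAIR1 replicate 1 it was 0.26.

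Reads of close copies limit how firmly single Ifit genes can be read. Of the 100-base windows of the longest Ifit3 transcript (GENCODE M21), 31.7% occur identically in Ifit3b, a copy in the same cluster. For Ifit1 the share was 3.29%, with Ifit1bl2, and for Ifit2 it was 0%. The way the authors counted such reads was not stated. Ifit3b itself was at 2.97, 2.47 and 2.54 CPM in controls and at 5.79, 4.66, 4.58 and 4.65 CPM with anti-LAIR1. That is the same direction, with separated groups and a log2 fold change of 0.88 (SE 0.22, edgeR unadjusted p = 0.00284, adjusted p = 0.624). Ifit1bl1 and Ifit1bl2 had too few counts to be tested, 93 and 34 reads over all libraries. RefSeq places Ifit1bl1, on the opposite strand, over the whole of Ifit1. GENCODE M21 places it from 34592891 to 34601956 and has no gene overlapping Ifit1. Which annotation the counts used was not stated. The 93 reads of Ifit1bl1 compare with 2525 for Ifit1. Ifit1bl1 was highest in anti-LAIR1 replicates 4 and 2, at 3.12 and 1.66 CPM, with the other 5 libraries at 0.204 to 0.432 CPM.

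Mx1, a nuclear GTPase active against influenza virus in strains with an intact copy, had the largest log2 fold change. Control libraries were almost equal at 1.74, 1.87 and 1.73 CPM, and treated ones stood at 8.16, 5.92, 3.97 and 9.74 CPM. The lowest treated library (3.97 CPM) was well above the highest control (1.87 CPM). The means were 1.78 ± 0.0775 CPM (SD, n = 3) and 6.95 ± 2.53 CPM (SD, n = 4), a log2 fold change of 1.96 (SE 0.33; edgeR unadjusted p = 0.000162, adjusted p = 0.540; exact permutation p = 0.0286). Only 479 reads over all libraries stand behind these values, from 17 to 134 per library.

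Mx2, its cytoplasmic relative, was at 7.09, 4.04 and 5.19 CPM in controls and at 13.4, 11.4, 7.17 and 11.5 CPM with anti-LAIR1. Control replicate 1 and anti-LAIR1 replicate 3 almost met. The log2 fold change was 0.98 (SE 0.26; edgeR unadjusted p = 0.00404, adjusted p = 0.680; exact permutation p = 0.0571). Mx1 and Mx2 share few reads: 1.25% of the 100-base windows of Mx1 and 1.72% of those of Mx2 occur in the other gene.

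Cmpk2 stood at 3.33, 1.80 and 3.05 CPM in controls and at 16.6, 8.51, 4.84 and 12.3 CPM with anti-LAIR1. The groups did not overlap, but the treated libraries spread more than for any other of the 7 genes, with an SD of 0.75 on the log2 scale. Means were 2.73 ± 0.816 CPM (SD, n = 3) and 10.6 ± 5.04 CPM (SD, n = 4). The log2 fold change was 1.94 (SE 0.42; edgeR unadjusted p = 0.00142, adjusted p = 0.624; exact permutation p = 0.0571).

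Rsad2, the neighbour of Cmpk2, was at 2.10, 2.92 and 3.46 CPM in controls and at 11.5, 5.45, 5.09 and 4.43 CPM with anti-LAIR1. Anti-LAIR1 replicate 1 stood far above the next library at 5.45 CPM, and all treated libraries were above all controls. The log2 fold change was 1.26 (SE 0.37; edgeR unadjusted p = 0.00768, adjusted p = 0.762; exact permutation p = 0.0286), and 0.85 without anti-LAIR1 replicate 1. Rsad2 and Cmpk2 did not order the libraries alike. In controls Rsad2 was lowest in replicate 1, where Cmpk2 was highest, and among treated libraries Rsad2 was lowest in replicate 4, where Cmpk2 was the second highest.

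DESeq2, a second count test, called Mx1 (adjusted p = 0.000217), Ifit1 (adjusted p = 0.000493) and Cmpk2 (adjusted p = 0.00185), against 0.376% of its genes called higher (52 of 13846). limma-voom called 0 of the 7, with a smallest adjusted p of 0.355 for Mx1, and had 6 higher at an unadjusted p under 0.05, against 4.56% of all genes. DESeq2 did not call Mx2 (adjusted p = 0.0898), Ifit3 (0.127), Rsad2 (0.165) or Ifit2 (0.841). For the 3 genes DESeq2 called, every other alternative gave an adjusted p above the threshold, up to 1.00, so the call rests on the choice of test.

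**Figure D3:**
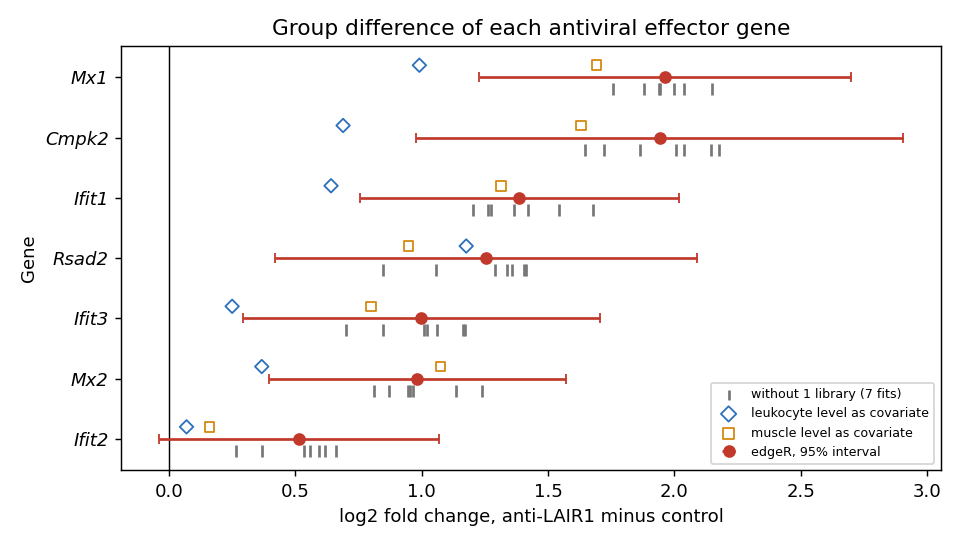
Log2 fold change (anti-LAIR1 minus control) of each gene. Red points and bars are the edgeR estimate and its 95% interval, grey ticks the 7 fits that each leave out 1 library, blue diamonds and orange squares the fits with the leukocyte or striated muscle level as a covariate. Only the interval of Ifit2 reaches below 0, and the leukocyte covariate gives the lowest value for every gene except Rsad2.

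Per kilobase of exon (union of GENCODE M21 exons), the Ifit genes had the highest levels in controls. Ifit3 (5.50 ± 1.24 CPM per kb), Ifit2 (5.39 ± 1.12) and Ifit1 (4.67 ± 1.42) did not differ beyond their SDs (n = 3). Mx2 followed at 1.51 ± 0.426 CPM per kb, then Cmpk2 (0.655 ± 0.196) and Rsad2 (0.652 ± 0.158), which were equal within their spread, and Mx1 (0.471 ± 0.0205). With anti-LAIR1 (n = 4) Ifit1 was first at 12.4 ± 3.67 CPM per kb, Ifit3 followed at 11.1 ± 4.49, and Ifit2 came next at 7.74 ± 2.52, again with overlapping spreads. Mx2 stood at 3.01 ± 0.730 CPM per kb and Cmpk2 at 2.54 ± 1.21. Mx1 (1.84 ± 0.668) and Rsad2 (1.52 ± 0.752) were last. The Ifit3 levels carry the uncertainty of the windows it shares with Ifit3b.

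The libraries of a group differed in the same way for most of the genes. Anti-LAIR1 replicate 1 was the highest of all libraries for 6 of the 7 genes, and replicate 4 for Mx1. Among the treated libraries, replicate 3 was the lowest for 5 of the 7. Summed over the 7 genes, treated libraries were at 169.9, 102.7, 79.4 and 118.1 CPM in replicates 1 to 4, and controls at 67.9, 52.6 and 47.3 CPM. The highest control and the lowest treated library were therefore closer to each other than the treated libraries were among themselves.

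**Figure D4:**
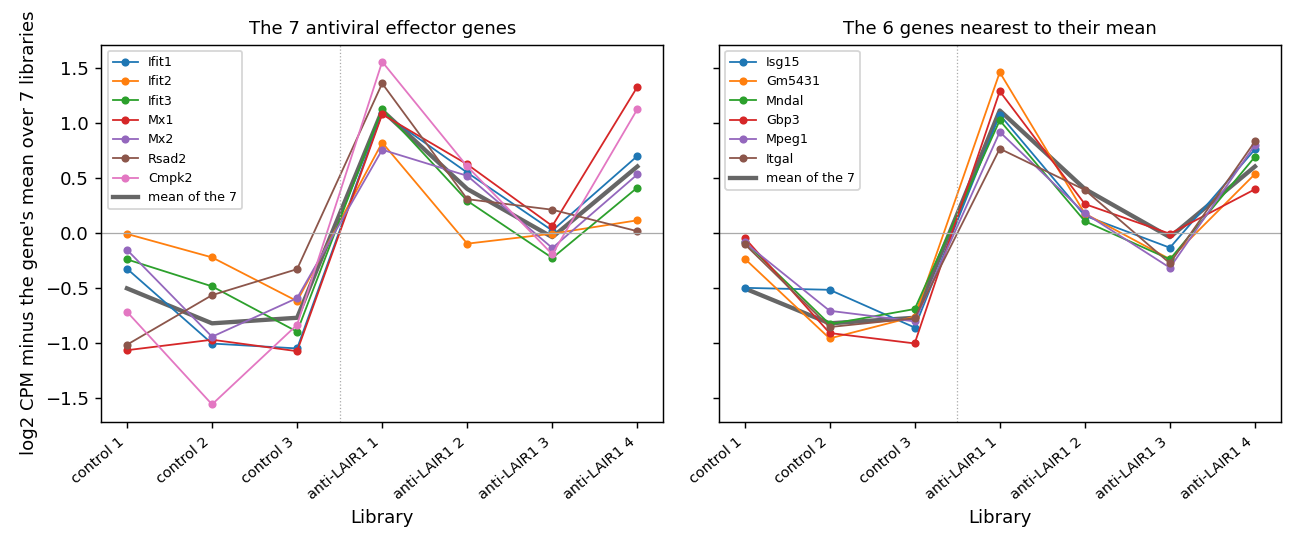
Log2 CPM of each gene minus its own mean over the 7 libraries, for the 7 antiviral effectors (left) and the 6 other genes closest to their mean profile (right). The thick line is the mean of the 7 effectors, and lines only link the points of 1 gene. All effectors but Ifit2 have their 4 treated points above their 3 control points.

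Differences between the genes themselves were examined as log2 ratios of 2 genes within a library, for all 21 pairs. The ratio of Ifit1 to Ifit2 averaged -0.78 ± 0.24 in controls and 0.11 ± 0.29 with anti-LAIR1, with separated groups. That of Mx1 to Mx2 averaged -1.51 ± 0.44 and -0.68 ± 0.31. For Ifit2 against Mx1 the averages were 3.45 ± 0.30 and 2.14 ± 0.51. These 3 pairs, and Ifit1 with Mx2, reached the lowest possible exact permutation p of 0.0286, but no pair passed after adjustment over the 21 (smallest adjusted p = 0.12). Mx1 and Cmpk2 kept the closest means, their ratio averaging -0.53 ± 0.51 in controls and -0.53 ± 0.33 in treated tumours. The 95% intervals of all 7 log2 fold changes overlapped except those of Ifit2 and Mx1, whose bounds were 1.07 and 1.23.

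Outside the 7, the genes with the most similar course over the 7 libraries were sought among 12314 tested genes whose average log2 CPM was 1 or more. Likeness was the root mean square distance between centred log2 CPM profiles. The 6 nearest were Isg15, Gm5431, Mndal, Gbp3, Mpeg1 and Itgal, at distances from 0.167 to 0.237, while the 7 genes themselves lay 0.160 to 0.414 from their own mean. Isg15 encodes a ubiquitin-like protein and Gbp3 a guanylate-binding GTPase, both induced by interferon, and Mndal an interferon-inducible DNA-binding protein. Mpeg1, a pore-forming protein of macrophages, and Itgal, the alpha chain of the leukocyte integrin LFA-1, are leukocyte genes. The groups of Isg15 and Gbp3 were separated and those of the other 4 overlapped. Isg15 stood at 2.65, 2.62 and 2.04 CPM in controls and at 8.16, 4.26, 3.45 and 6.54 CPM with anti-LAIR1, in the same order of treated libraries as Ifit1. Mpeg1 stood at 80.6, 52.4 and 49.0 CPM against 161.9, 96.9, 68.7 and 149.1 CPM, where treated replicate 3 lay below control replicate 1.

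Upstream of the effectors, interferon transcripts were hardly detected. Of 21 interferon genes listed, 16 had no count in any library, which for a single library allows up to 0.119 to 0.305 CPM (3 counts, counting error only). Ifnb1 had 3 reads in all, 2 in anti-LAIR1 replicate 2 and 1 in replicate 4. Ifna16 had 3 reads, of which 1 was in a control, and Ifna5 had 1 in anti-LAIR1 replicate 4. Ifng, the interferon of T and NK cells, had 11, 3 and 0 reads in controls and 6, 4, 6 and 10 with anti-LAIR1, and in CPM the groups overlapped. Ifne, an epithelial type I interferon, was the 1 ligand with enough reads to be tested, at 1.25 ± 0.732 CPM in controls and 0.696 ± 0.207 CPM with anti-LAIR1 (log2 fold change -0.82, SE 0.48, edgeR adjusted p = 0.981). At this depth a difference in the other ligands was not detectable.

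Receptor and kinase genes differed little between the groups. All 9 were tested, 5 were above 0, the median log2 fold change was 0.00, and the range was -0.21 to 0.25. Ifnar2, a chain of the receptor for interferons alpha and beta, was the 1 gene with an unadjusted p under 0.05, at 33.8 CPM in controls and 40.4 CPM with anti-LAIR1 (log2 fold change 0.25, SE 0.11, edgeR unadjusted p = 0.0395, adjusted p = 0.953). The next by p were Ifnlr1, Ifngr2 and Ifngr1, with log2 fold changes of -0.21, 0.12 and -0.11. Of 11 nucleic acid sensors and adaptors, 9 were above 0, 4 were higher at an unadjusted p under 0.05, 0 passed adjustment with edgeR or DESeq2, and the median was 0.18. Of all genes tested, 49.1% were above 0 and 3.51% were higher at an unadjusted edgeR p under 0.05. Tlr9, a sensor of DNA in endosomes, averaged 0.536 CPM in controls and 1.95 CPM with anti-LAIR1 (log2 fold change 1.77, SE 0.46). Mb21d1, the older symbol of the DNA sensor cGAS, averaged 0.977 and 2.09 CPM, Tlr3, a sensor of double-stranded RNA, 21.4 and 33.3 CPM, and Tmem173, the adaptor STING, 20.96 and 27.3 CPM.

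Other type I interferon response genes had the same direction. All 32 found of 33 listed were above 0, 23 were higher at an unadjusted p under 0.05, 11 had separated groups, and 0 passed adjustment with edgeR and 3 with DESeq2. The median log2 fold change was 0.79, with a range from 0.11 to 2.06, the top of which lies above every effector. Over all genes, 49.1% were above 0, 3.51% were higher at an unadjusted edgeR p under 0.05, and 3.06% were separated and higher. DESeq2 called 0.376% of its genes higher. Ifi44, an interferon-induced cytoplasmic protein, averaged 4.43 CPM in controls and 13.9 CPM with anti-LAIR1 (log2 fold change 1.67, SE 0.31), close to Mx1 and Cmpk2. Usp18, which removes ISG15 and dampens receptor signalling, averaged 3.30 and 8.41 CPM. Xaf1, a pro-apoptotic protein, averaged 11.6 and 19.8 CPM, and Oas2, a sensor that activates RNase L, 5.10 and 13.4 CPM. Summed over the list, treated libraries (1325 to 2333 CPM) overlapped with controls (940 to 1463 CPM), unlike the 7 effectors. Genes led by interferon gamma had a median of 1.12, with all 17 above 0, 12 higher at an unadjusted p under 0.05, 7 separated, and 0 (edgeR) or 4 (DESeq2) past adjustment. The T cell attractants Cxcl10 (3.66 and 11.2 CPM) and Cxcl9 (11.3 and 44.1 CPM) came first by p, then Gbp4 (24.6 and 88.7 CPM) and Gbp5 (13.6 and 32.3 CPM).

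Pan-leukocyte transcripts were also higher in the treated libraries. All 17 pan-leukocyte markers were above 0, against 49.1% of all genes, and 9 were higher at an unadjusted edgeR p under 0.05, against 3.51%. Their summed level was 325, 292 and 283 CPM in controls and 480, 381, 378 and 464 CPM in treated replicates 1 to 4, without overlap. The median log2 fold change of these markers was 0.50, against 1.26 for the effectors. With the leukocyte level of each library as a covariate, edgeR gave a median of 0.64 for the 7 genes, from 0.07 for Ifit2 to 1.18 for Rsad2. Of the 7, only Mx1, at 0.99, was then higher at an unadjusted p under 0.05, against 3.05% of all genes (413 genes). The edgeR adjusted p of Mx1 was 0.897. The 4 libraries with the highest leukocyte level were the 4 treated ones, so the parts of the covariate and the group cannot be told apart.

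**Figure D5:**
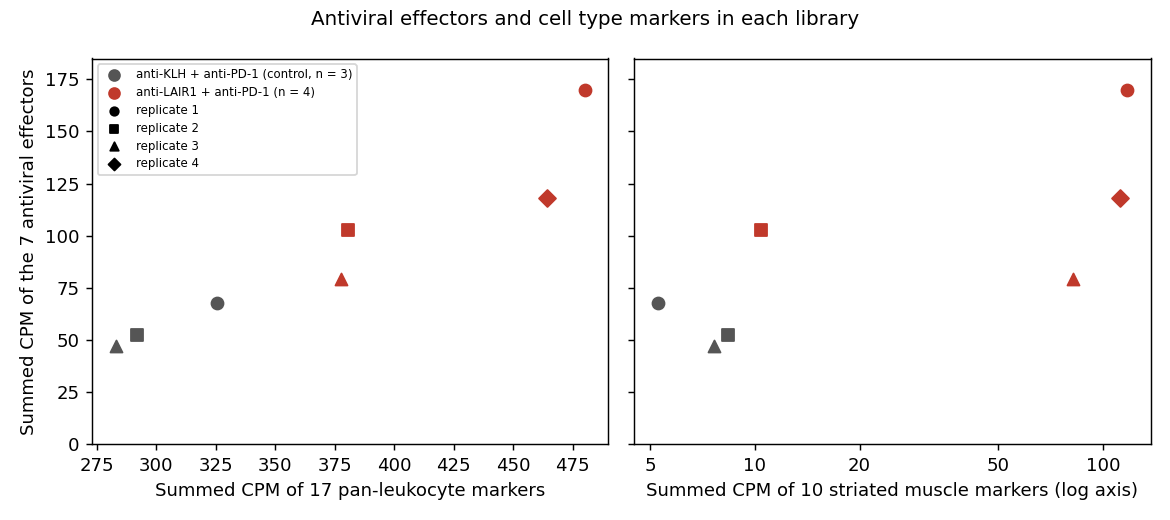
Summed CPM of the 7 antiviral effectors (vertical axis, from 0) against the summed CPM of 17 pan-leukocyte markers (left) and of 10 striated muscle markers (right, log axis), 1 point per library, grey for control and red for anti-LAIR1. Treated libraries are higher on all 3 measures. Anti-LAIR1 replicate 2 is at 102.7 CPM for the effectors, below replicates 1 and 4, and at 10.4 CPM for the muscle markers. It is the only treated library with muscle markers near those of controls.

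T and NK cell markers had a median log2 fold change of 1.40, above that of the effectors. All 9 tested were above 0, 3 at an unadjusted p under 0.05, 0 past adjustment with edgeR or DESeq2, and 1 with separated groups. That 1 was Cd4, the coreceptor of helper T cells, at 0.203 CPM in controls and 1.33 CPM with anti-LAIR1 (log2 fold change 2.48, SE 0.58). Only 86 reads over all libraries stand behind Cd4, and its controls, at 0.102 to 0.356 CPM, lay near the level of 3 counts. The summed levels of the T and NK cell markers, 7.03 to 23.95 CPM in controls and 12.5 to 53.3 CPM with anti-LAIR1, overlapped. Of 11 macrophage and monocyte markers tested, 10 were above 0, 3 at an unadjusted p under 0.05 and 2 with separated groups, and the median was 0.27. For both lists the shares over all genes were 49.1% above 0, 3.51% higher at an unadjusted edgeR p under 0.05, and 3.06% separated and higher. Csf1r, the receptor for macrophage growth factor, averaged 42.5 and 64.3 CPM (log2 fold change 0.60, SE 0.12, edgeR adjusted p = 0.608, DESeq2 adjusted p = 0.00948). The mean log2 CPM of these 11 separated the groups, at 4.10 to 4.24 in controls and 4.39 to 4.65 with anti-LAIR1. Their sums, 333 to 481 and 416 to 521 CPM, overlapped, with Lyz2 alone averaging 203 and 215 CPM. Summed T and NK cell markers were at 53.3, 25.7, 12.5 and 49.3 CPM in treated replicates 1 to 4. The summed effectors ranked the treated libraries in the same order, and control replicate 1 was the highest control for both. In anti-LAIR1 replicate 3 the T and NK cell markers were below control replicate 1 (23.95 CPM). The effectors of that library were above every control, by narrow margins for Ifit2, Ifit3 and Mx2. Plasmacytoid dendritic cells are known as potent makers of type I interferon. Their markers overlapped between the groups, at 1.39 to 2.04 CPM in sum in controls and 1.12 to 4.80 CPM with anti-LAIR1. The lowest sum was that of anti-LAIR1 replicate 1. Ly6d, the 1 marker of these cells with enough reads to be tested, had a log2 fold change of -0.05 (SE 0.53). It made up most of the mean sum, at 1.56 of 1.79 CPM in controls and 1.48 of 2.67 CPM with anti-LAIR1. The other listed markers had too few reads to be tested, and all had higher means with anti-LAIR1. The groups of Ccr9 were separated, at 0.0748 to 0.102 CPM in controls and 0.133 to 0.944 CPM with anti-LAIR1, on 28 reads in all. Siglech, a receptor that defines these cells, had 0, 1 and 0 reads in controls and 1, 9, 2 and 9 with anti-LAIR1. Neutrophil (4.39 to 12.1 and 5.81 to 10.1 CPM), fibroblast (2620 to 2869 and 1865 to 3220 CPM) and epithelial markers overlapped between the groups. Endothelial markers were at 97.0 to 127 CPM in controls and at 133 to 158 CPM in treated tumours. The parts of these cell types in the effector levels were not tested.

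Striated muscle markers differed most, at 5.27 to 8.38 CPM in controls and 10.4 to 117 CPM with anti-LAIR1. In anti-LAIR1 replicate 2 they were at 10.4 CPM, next to the controls, and the summed effector level of that library was 102.7 CPM, above every control. As a covariate the muscle level was the mean log2 CPM of the tested markers. It was 0.04 to 0.46 in controls, 0.31 in anti-LAIR1 replicate 2 and 4.03 to 4.21 in treated replicates 1, 3 and 4. The group difference in that fit therefore rests mainly on replicate 2, and elsewhere the parts of muscle level and group cannot be told apart. With the muscle level as a covariate all 7 log2 fold changes remained above 0, from 0.16 for Ifit2 to 1.69 for Mx1. The number of effectors higher at an unadjusted edgeR p under 0.05 was then 4 in place of 6, against 1.23% of all genes, as Ifit3 (0.80) and Rsad2 (0.95) no longer passed.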

How the data were processed

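The authors deposited raw counts of reads in 1 table, with a row for each gene symbol and a column for each library. Per the labels' protocols, polyadenylated RNA was made into directional libraries and sequenced as single reads, and the build was mm10 and the tools were featureCounts 2.0.1, STAR 2.7.6, Trim Galore and edgeR 3.40.1, per the submitters' processing notes. Not given in the sources used here are the annotation, the strand setting and the handling of multi-mapping reads. The table holds 0 summary rows.

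Counts were analysed as deposited in R 4.3.3 with edgeR 4.0.16: filterByExpr (minimum count 10), TMM scaling, and a robust quasi-likelihood model of group alone over the 7 libraries. P-values were adjusted by Benjamini-Hochberg over all 13545 genes, with a threshold of 0.05. CPM uses TMM-scaled totals, and log2 CPM a prior count of 2. Permutation tests enumerate the 35 splits. DESeq2 1.42.0 and limma 3.58.1 (voom) were alternatives, besides scaling, filters, covariates and leaving out libraries.

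Named genes are the 7 effectors, the 6 nearest profiles, and the up to 4 smallest p of each pathway list (all paralogues and all ligands with counts). Siglech, Ly6d, Ccr9, Cd4, Csf1r and Lyz2 were named after their values were seen. Members and lists were chosen with earlier results of these data known. Symbols matched the RefSeq table for 95% of genes. Replicates were numbered within groups in accession order. Figures used matplotlib 3.10.9.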

Additional observations from a re-analysis of the deposited data

Results flagged for a closer look

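In 3 of 41 values examined, 1 of the 4 anti-LAIR1 libraries stood apart from the other 3 by Dixon's criterion, which sets the gap to the nearest library against the whole range at the 95% level. Chance alone gives about 1 in 20. All 3 concern anti-LAIR1 replicate 1. For Rsad2 it was at 11.5 CPM with the others at 4.43 to 5.45 CPM (a gap of 0.854 of the range). For Usp18 it was at 11.7 CPM with the others at 7.18 to 7.48 CPM (0.934), and for Ifit3b at 5.79 CPM with the others at 4.58 to 4.66 CPM (0.935). The control group, with 3 libraries, was too small for this criterion.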

How the results depend on the processing

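All 7 genes kept a positive log2 fold change under all 15 alternatives. Of 105 such values, 102 stayed on the same side of the adjusted threshold, and the other 3 came from DESeq2, with log2 fold changes of 1.97 for Mx1, 1.40 for Ifit1 and 1.95 for Cmpk2. Without single libraries the values ran from 1.20 to 1.68 for Ifit1, 0.26 to 0.66 for Ifit2, 0.70 to 1.17 for Ifit3, 1.76 to 2.15 for Mx1, 0.81 to 1.24 for Mx2, 0.85 to 1.41 for Rsad2 and 1.65 to 2.18 for Cmpk2. The median of the 7 was 0.64 with the leukocyte covariate. There the number of effectors higher at an unadjusted p under 0.05 was 1 in place of 6, against 3.05% of all genes. With the muscle covariate that number was 4, against 1.23%. Without single libraries that number was 6 or 7, where 2.33% to 4.203% of all genes passed. The number with separated groups was also 6 or 7, where 5.08% to 7.74% of all genes were separated, and it was 7 without control replicate 1 (7.74%) or anti-LAIR1 replicate 2 (5.08%). Over all genes, edgeR and limma-voom called 0, DESeq2 54, and edgeR without single libraries from 0 to 3, the 3 without anti-LAIR1 replicate 2. Among the 24 other named genes, 5 values changed sign. With the leukocyte covariate these were Mndal (-0.0873), Mpeg1 (-0.14), Tlr3 (-0.25) and Ifngr1 (0.0119), and with the muscle covariate Ifngr2 (-0.0278). The cause was not tested. Depth limits Mx1 (17 to 134 reads per library), Rsad2 (34 to 174) and Cmpk2 (24 to 252), and also Cd4 and the interferon ligands. No paired analysis was possible because the labels give no replicate numbers that the groups share.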
